A study of Schizosaccharomyces pombe with 6 samples.

Results

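The mRNAs described here come from 4 genes of vacuolar proteolysis and autophagy, *isp6*, *psp3*, *cpy1* and *atg8*, of the 7001 genes in the table of counts. They were taken by their systematic identifiers, SPAC4A8.04, SPAC1006.01, SPAC19G12.10c and SPBP8B7.24c. The rule used no measured value, but earlier results of these data were known when the genes were chosen. Each was measured by ChIRP-seq in fission yeast, *Schizosaccharomyces pombe*: cells were fixed with formaldehyde, 5′-biotinylated DNA probes antisense to the long non-coding RNA *aal1* were used for a pull-down, and the RNA that came with the beads was sequenced. Pull-downs were made on Day 6 of stationary phase, in minimal medium with glutamate (EMMG), from 3 strains with 2 libraries each. The *aal1-pOE* cells carried *aal1* on a plasmid, driven by *P41nmt1*, a promoter that thiamine represses, in the 972h-/*leu1-32* background. Wild-type cells (972h-) carried the native gene and no plasmid, and *aal1∆* cells were 972h- with *aal1* removed by CRISPR-Cas9, so their pull-downs contain what probes and beads recovered without *aal1*. No empty-vector library was analysed here, so for *aal1-pOE* the effects of *aal1*, of the plasmid and of the *leu1-32* background cannot be told apart. No input library was analysed here either. More of an mRNA in the cells and more of it recovered by the pull-down therefore cannot be told apart, and neither can fewer living cells and less RNA per cell.

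The yeast vacuole is the counterpart of the lysosome. In autophagy, cytoplasm is enclosed in a double-membrane vesicle, delivered to the vacuole and degraded there, which returns amino acids and other building blocks to starved or non-dividing cells. Isp6 and Psp3 are serine proteases of the subtilase family that take part in breakdown in the *S. pombe* vacuole, Cpy1 is the vacuolar carboxypeptidase Y, and Atg8 is a ubiquitin-like protein that is joined to a lipid of the forming vesicle.

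In the assembly ASM294v3 with its RefSeq annotation, *isp6* lies on the plus strand of chromosome I from 2544842 to 2546981 as 1 exon of 2140 nt, with a coding sequence of 1404 nt from 2545350 to 2546753. *psp3* lies on the plus strand of chromosome I from 5067518 to 5069371 as 1 exon of 1854 nt, with a coding sequence of 1356 nt from 5067840 to 5069195. *cpy1*, the longest of the 4 transcripts, lies on the minus strand of chromosome I from 4061377 to 4064957 as 1 exon of 3581 nt, with a coding sequence of 3009 nt. *atg8* is on chromosome II, minus strand, from 3684281 to 3685370 in 3 exons that sum to 843 nt, with a coding sequence of 366 nt.

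*isp6* and *psp3* encode related proteases, so their sequences were compared to see whether a read could belong to either. The longest stretch that their transcripts share without a mismatch is 17 nt, in capitals below, from the coding sequence of each (chrI:2546098-2546154 and chrI:5068540-5068596, plus strand, ASM294v3).
isp6: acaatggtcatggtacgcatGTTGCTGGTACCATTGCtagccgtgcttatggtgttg
psp3: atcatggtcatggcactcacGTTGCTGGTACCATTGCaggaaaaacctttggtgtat
Along the alignment without gaps that runs through this stretch, the most alike window of 67 nt, the length of a read after trimming, had 54 identical bases and 13 mismatches. The other pairs of the 4 transcripts share at most 14 nt.

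*aal1* (SPNCRNA.1530, minus strand of chromosome II, 2580400 to 2581182, 783 nt) was searched for stretches complementary to the 4 transcripts, without G:U pairs, because these are what direct pairing of *aal1* with an mRNA would use. The longest was 11 nt in *isp6* and *atg8* and 10 nt in *psp3* and *cpy1*. Of 5113 annotated nuclear mRNAs, 55.2% hold a stretch of at least 11 nt and 89.0% one of at least 10 nt, and the median is 11 nt. The stretch of *isp6* is shown in capitals with its partner in *aal1*, which reads as its reverse complement (chrI:2545867-2545893, plus strand, and chrII:2580602-2580628, minus strand).
isp6: ttgtcagcATTAAGAAACTtgaaactc
aal1: ggtctgctAGTTTCTTAATccagcatt
For *cpy1*, the most counted of the 4 mRNAs, the stretch and its partner were the following (chrI:4062602-4062627 and chrII:2580402-2580427, both minus strand).
cpy1: ctggtttgTTCATGGAATtaggtcct
aal1: gatagtgtATTCCATGAAtaaaaatc
Because the probes are antisense to *aal1*, a stretch identical to *aal1* is what a probe itself could bind. The longest such stretch was 12 nt in *isp6* and *psp3* and 10 nt in *cpy1* and *atg8*, against 12 nt or more in 30.4% and 10 nt or more in 90.2% of nuclear mRNAs. That of *psp3* is shown with *aal1* (chrI:5067719-5067746, plus strand, and chrII:2581082-2581109, minus strand). Which parts of *aal1* the probes cover was not used here.
psp3: agtttgctAATTGCTTATTTcaatctgc
aal1: gctctcaaAATTGCTTATTTaatattgg

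The libraries held 91917 and 82299 counts in *aal1-pOE*, 89491 and 86614 in wild type, against 175263 and 40653 in *aal1∆*. *aal1* itself was counted 9540 and 20832 times in *aal1-pOE*, 28 and 147 times in wild type and 0 times in both *aal1∆* libraries, as the labels imply. It took 10.4% and 25.3% of the *aal1-pOE* totals, which lowers the share of every other RNA there, and rRNA took 25.7% to 54.4% of the 6 libraries. Levels are therefore given as counts per 1000000 total counts (CPM) and also as a percentage of the counts of nuclear mRNAs. Intervals on single libraries are exact Poisson for CPM and Wilson for percentages, at 95%, and cover counting error only, since reads may be copies of the same molecule.

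The protease mRNAs *cpy1* and *isp6* were among the most counted nuclear mRNAs in every pull-down, the *aal1∆* pull-downs included. Summed over the 6 libraries, *cpy1* had 2145 counts and ranked 7 among 5111 nuclear mRNAs in the table, *isp6* had 1083 counts and ranked 27, *psp3* had 240 and ranked 223, and *atg8* had 22 and ranked 2059. The median nuclear mRNA had 15 counts. Per kilobase of transcript, the scale on which different genes can be compared, *cpy1* ranked 24, *isp6* 33, *psp3* 215 and *atg8* 1117. *cpy1* was between rank 5 and rank 12 by counts in each single library, and *isp6* between rank 22 and rank 48. *psp3* lay lower, between rank 167 and rank 494. The 3 other vacuolar peptidase genes looked at had fewer counts than *psp3*, with 123 for *cps1*, 75 for *erm2* and 6 for *dpp1*.

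**Figure D1:**
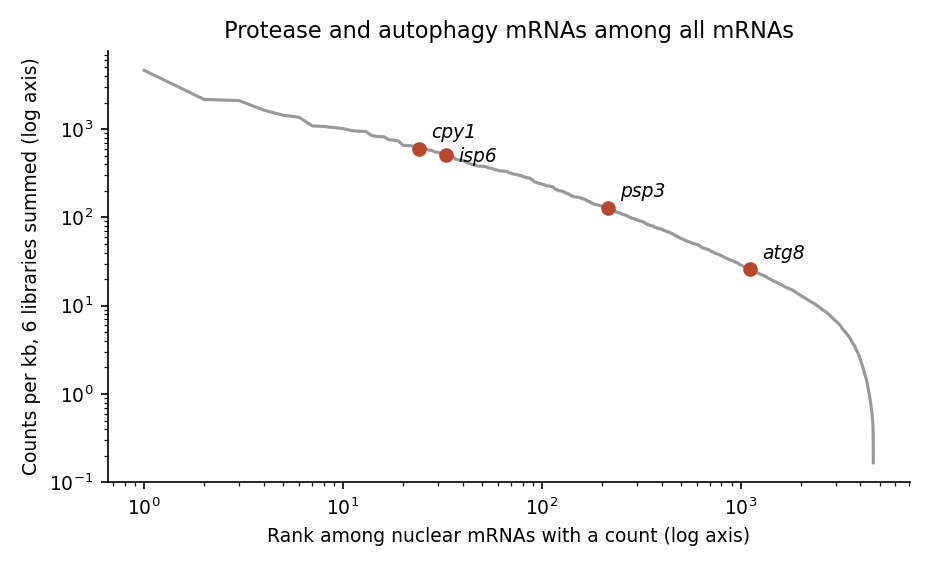
Counts per kilobase of transcript summed over the 6 libraries (log axis) against rank among nuclear mRNAs with a count (log axis). The grey line is all such mRNAs, and the points mark *cpy1* at rank 24, *isp6* at rank 33, *psp3* at rank 215 and *atg8* at rank 1117.

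*isp6*, the subtilase gene, had 146 and 91 counts for *aal1-pOE*, 231 and 146 for wild type, against 383 and 86 for *aal1∆*. In CPM this is 1588 (95% interval 1341 to 1868) and 1106 (890 to 1358) in *aal1-pOE*, 2581 (2259 to 2936) and 1686 (1423 to 1982) in wild type, against 2185 (1972 to 2415) and 2115 (1692 to 2613) in *aal1∆*. Both *aal1-pOE* libraries lay below all 4 others, an order that 8.65% of the 1329 RNAs kept for testing had in CPM, although the interval of *aal1-pOE* replicate 1 overlapped those of replicate 2 of both other strains. The mean level was 1347 ± 341 CPM in *aal1-pOE*, 2133 ± 633 CPM in wild type and 2150 ± 49.4 CPM in *aal1∆* (SD, n = 2 each). Within nuclear mRNA, where *aal1* and rRNA do not enter the denominator, *isp6* made up 0.294% and 0.244% in *aal1-pOE*, 0.393% and 0.398% in wild type, against 0.408% and 0.378% in *aal1∆*. On this scale, too, the *aal1-pOE* libraries were the lowest, as in 8.05% of the 1292 nuclear mRNAs among those RNAs, and the wild-type and *aal1∆* libraries overlapped. The mean share in *aal1-pOE* was 0.684 times that in *aal1∆* and 0.680 times that in wild type, and for each the two-sided exact permutation p was 0.333, the smallest value that 2 libraries against 2 allow.

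*psp3*, the gene of the second subtilase, had 50 and 26 counts for *aal1-pOE*, 32 and 27 for wild type, against 95 and 10 for *aal1∆*. Its level was 544 and 316 CPM in *aal1-pOE*, 358 and 312 CPM in wild type, against 542 and 246 CPM in *aal1∆*. All 3 strains overlapped, and the *aal1∆* libraries lay at both ends, one near the top and the other at the bottom. The means were 429.9 ± 161 CPM in *aal1-pOE*, 335 ± 32.4 CPM in wild type and 394 ± 209 CPM in *aal1∆* (SD, n = 2 each). Between the *aal1∆* replicates the counts of *psp3* differed by more than counting error after TMM scaling (exact binomial test, p = 0.00354, adjusted p = 0.0213 over 12 tests of 4 mRNAs in 3 strains), whereas scaled to nuclear mRNA counts the adjusted p of the same exact test was 0.0546.

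*cpy1*, the carboxypeptidase Y gene, had 294 and 285 counts for *aal1-pOE*, 357 and 235 for wild type, against 789 and 185 for *aal1∆*. Its level was 3199 (2843 to 3586) and 3463 (3073 to 3889) CPM in *aal1-pOE*, 3989 (3586 to 4425) and 2713 (2377 to 3083) CPM in wild type, against 4502 (4193 to 4827) and 4551 (3919 to 5256) CPM in *aal1∆*. Both *aal1∆* libraries, made without the RNA that the probes target, were thus the highest in *cpy1*, an order that 5.64% of the RNAs kept for testing had. As a share of nuclear mRNA, *cpy1* made up 0.593% and 0.763% in *aal1-pOE*, 0.608% and 0.641% in wild type, against 0.840% and 0.814% in *aal1∆*, with *aal1∆* again above the others, as in 5.88% of nuclear mRNAs. The mean share was 0.819 times that of *aal1∆* in *aal1-pOE* and 0.755 times in wild type, each with a two-sided exact permutation p of 0.333. After TMM normalisation, which scales each library on its bulk of RNAs, *cpy1* had 3083 and 4165 CPM in *aal1-pOE*, 3070 and 3315 CPM in wild type, against 4575 and 4108 CPM in *aal1∆*, so that *aal1-pOE* and *aal1∆* overlapped on that scale. The *aal1-pOE* replicates of *cpy1* differed by more than counting error on the TMM scale (exact binomial test, adjusted p = 0.00401 over the 12 tests), where of the 12 pairs of replicates only this one and *psp3* in *aal1∆* had an adjusted p under 0.05. Scaled to total counts, the pairs under 0.05 were *isp6* in *aal1-pOE* (adjusted p = 0.0301) and in wild type (0.000333), *cpy1* in wild type (4.7e-05) and *psp3* in *aal1∆* (0.0366), by the same exact test. Scaled to nuclear mRNA counts, *cpy1* in *aal1-pOE* was the one pair under 0.05 (exact test, adjusted p = 0.0299).

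*atg8*, the autophagy gene, had 1 and 0 counts for *aal1-pOE*, 4 and 5 for wild type, against 11 and 1 for *aal1∆*. Its level was 10.9 CPM and 0 CPM in *aal1-pOE*, 44.7 and 57.7 CPM in wild type, against 62.8 and 24.6 CPM in *aal1∆*. In CPM the *aal1-pOE* libraries lay below the others, an order that 8.65% of the 1329 RNAs kept for testing had. *atg8* was not among those RNAs, because of its low counts. The exact Poisson 95% interval of the 0 among 82299 total counts reaches 44.8 CPM. That is above the 24.6 CPM of *atg8* in *aal1∆* replicate 2 and the 44.7 CPM in wild-type replicate 1. Over both libraries of a strain, the ratio of *atg8* in *aal1-pOE* was 0.103 to *aal1∆* (exact 95% interval 0.00242 to 0.698) and 0.112 to wild type (0.00256 to 0.811), intervals that rest on 1 count and hold no spread between replicates. Between wild type and *aal1∆* that ratio was 0.920 (0.342 to 2.38). *rnf10*, which overlaps *atg8* by 132 nt on the opposite strand, had 23 and 3 counts for *aal1-pOE*, 19 and 7 for wild type, against 32 and 1 for *aal1∆*, more than *atg8* in 5 of the 6 libraries.

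**Figure D2:**
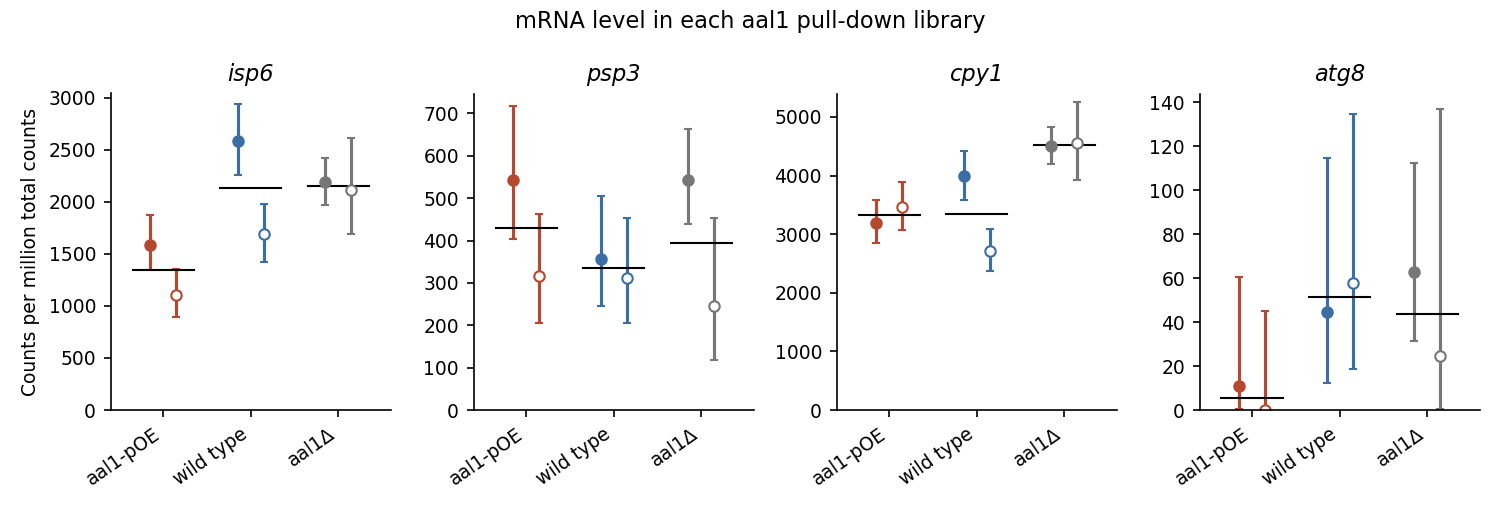
Level of *isp6*, *psp3*, *cpy1* and *atg8* in CPM (counts per 1000000 total counts) in each pull-down library, with exact Poisson 95% intervals. Filled points are replicate 1, open points replicate 2 and lines the mean of a strain. *isp6* and *atg8* are lowest in *aal1-pOE*, as are 8.65% of the RNAs kept for testing, a set without *atg8*. *cpy1* is highest in *aal1∆* at 4502 and 4551 CPM, as are 5.64% of those RNAs.

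Per kilobase, *cpy1* had 930.1 ± 52.2 CPM in *aal1-pOE*, 936 ± 252 CPM in wild type and 1264 ± 9.66 CPM in *aal1∆*. *isp6* had 629 ± 159 CPM per kilobase in *aal1-pOE*, 997 ± 296 in wild type and 1005 ± 23.1 in *aal1∆*. *psp3* had 232 ± 87.0 CPM per kilobase in *aal1-pOE*, 181 ± 17.5 in wild type and 213 ± 113 in *aal1∆*. *atg8* followed with 6.45 ± 9.13 CPM per kilobase in *aal1-pOE*, 60.8 ± 10.9 in wild type and 51.8 ± 32.0 in *aal1∆* (SD, n = 2 each). The order of levels was therefore *cpy1* and *isp6*, then *psp3*, then *atg8* in all 3 strains. *cpy1* and *isp6*, neighbours in this order, did not differ beyond their spread in wild type, where *isp6* was slightly the higher of them. In *aal1-pOE* and in *aal1∆* both libraries had *cpy1* above *isp6*, and the libraries of the other neighbours in the order did not overlap in any strain.

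Ratios of counts within a library need no library total. *isp6* had 0.497 and 0.319 counts per count of *cpy1* in *aal1-pOE*, 0.647 and 0.621 in wild type, against 0.485 and 0.465 in *aal1∆*. The wild-type libraries had the highest ratios, above both other strains, which overlapped. The mean ratio of *isp6* to *cpy1* in *aal1-pOE* was 0.643 times that in wild type and 0.859 times that in *aal1∆*, and in wild type it was 1.33 times that in *aal1∆*. The ratio of *psp3* to *isp6* was 0.342 and 0.286 in *aal1-pOE*, 0.139 and 0.185 in wild type, against 0.248 and 0.116 in *aal1∆*. Here both *aal1-pOE* libraries were the highest, with a mean ratio 1.94 times that of wild type. For each pair of strains that did not overlap in these ratios the two-sided exact permutation p was 0.333, the smallest possible value. The ratios were chosen after seeing the data, and how common such orders are among other pairs of mRNAs was not counted. The ratio of *psp3* to *cpy1* overlapped in all 3 strains, between 0.0541 and 0.170.

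**Figure D3:**
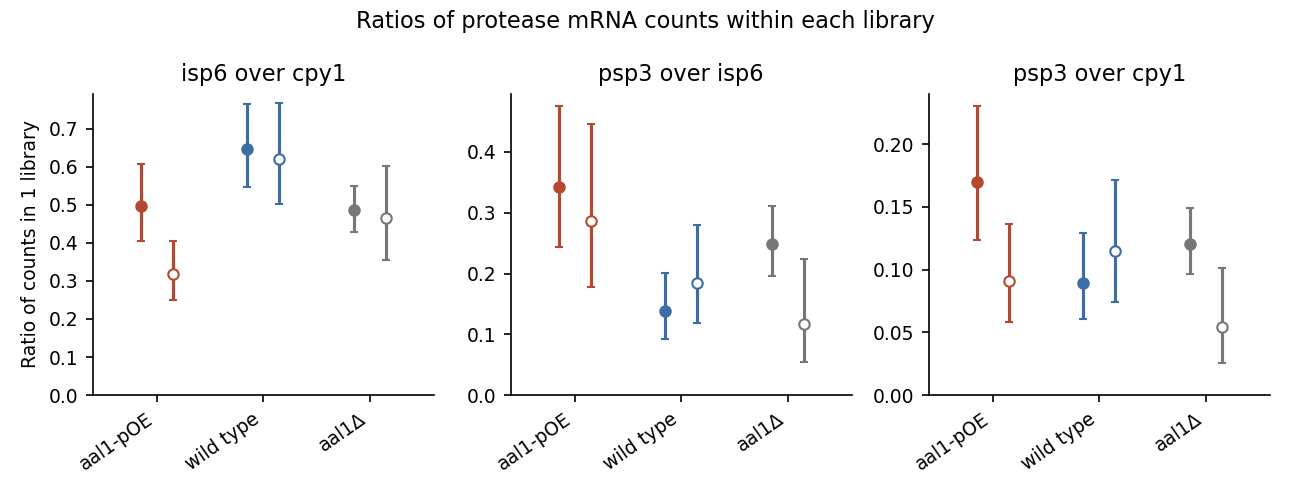
Ratio of counts between protease mRNAs in each library, with exact 95% binomial intervals (filled points replicate 1, open points replicate 2). *isp6* over *cpy1* is highest in wild type at 0.647 and 0.621, and *psp3* over *isp6* is highest in *aal1-pOE* at 0.342 and 0.286.

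A quasi-likelihood fit of all 6 libraries in edgeR was used to ask whether recovery of each mRNA differed between strains beyond the spread of replicates. *isp6*, *psp3* and *cpy1* passed the filter on low counts, with 1329 RNAs in all, and *atg8* did not. An RNA was called when its Benjamini-Hochberg adjusted p over these RNAs was under 0.05. In wild type against *aal1∆*, which asks what comes down with native *aal1*, 0 of the 3 mRNAs were called, where 0.15% of all tested RNAs were. In *aal1-pOE* against *aal1∆* 0 of 3 were called, against 0.376% of all tested RNAs, and in *aal1-pOE* against wild type 0 of 3, against 0.226%. None of the 9 tests had an unadjusted p under 0.05 either, and DESeq2 and edgeR's likelihood ratio test called 0 of 3 in each comparison.

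In wild type against *aal1∆*, the log2 fold change was -0.03 (standard error 0.380) for *isp6*, -0.32 (standard error 0.551) for *psp3* and -0.45 (standard error 0.392) for *cpy1*, each with an adjusted p of 0.9999 from edgeR. In fold terms *isp6* was 0.976 (95% interval 0.578 to 1.65), *psp3* 0.804 (0.375 to 1.72) and *cpy1* 0.734 (0.428 to 1.26). A recovery of *isp6* in wild type above 1.65 times, or of *cpy1* above 1.26 times, that of *aal1∆* thus lies outside these intervals. The sign of *psp3* rested on 1 library, since its log2 fold change was 0.55 without *aal1∆* replicate 1, and that of *isp6*, near 0, lay between -0.135 and 0.0827 with single libraries left out. *cpy1* was the one mRNA of the 3 whose wild-type libraries both lay below both *aal1∆* libraries in TMM-normalised CPM, an order that 16.0% of all tested RNAs had, and 0 of the 3 had the opposite order, which 14.2% had.

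In *aal1-pOE* against *aal1∆*, the log2 fold change was -0.53 (standard error 0.383) for *isp6*, 0.16 (standard error 0.545) for *psp3* and -0.26 (standard error 0.391) for *cpy1*, with an adjusted p of 0.9999 from edgeR for each. The fold change of *isp6* was 0.691 (95% interval 0.407 to 1.17), that of *psp3* 1.12 (0.527 to 2.38) and that of *cpy1* 0.833 (0.485 to 1.43). The direction of *psp3* rested on single libraries: leaving out *aal1∆* replicate 1 gave a log2 fold change of 1.03, leaving out *aal1∆* replicate 2 gave -0.28, and leaving out *aal1-pOE* replicate 1 gave -0.07. *isp6* alone of the 3 tested mRNAs had both *aal1-pOE* libraries below both *aal1∆* libraries in TMM-normalised CPM. Its levels were 1531 and 1330 CPM in *aal1-pOE* against 2221 and 1910 CPM in *aal1∆*. Of all tested RNAs, 17.2% had this order.

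In *aal1-pOE* against wild type, the log2 fold change was -0.50 (standard error 0.383) for *isp6*, 0.48 (standard error 0.553) for *psp3* and 0.18 (standard error 0.392) for *cpy1*, with an adjusted p of 0.995 from edgeR for each. *isp6* was 0.708 (95% interval 0.418 to 1.20), *psp3* 1.39 (0.650 to 2.99) and *cpy1* 1.13 (0.661 to 1.95) in fold terms. Without *aal1-pOE* replicate 2 the log2 fold change of *cpy1* was -0.0498. The *aal1-pOE* libraries of *isp6* both lay below those of wild type, an order that 16.5% of all tested RNAs had. The comparisons share libraries pairwise, so they are not independent of each other. When *atg8* was kept by using no filter, its log2 fold change was 0.09 (standard error 1.92) in wild type against *aal1∆*, -2.80 (standard error 2.23) in *aal1-pOE* against *aal1∆* and -2.89 (standard error 2.24) in *aal1-pOE* against wild type, with edgeR adjusted p of 1, 0.988 and 0.938.

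**Figure D4:**
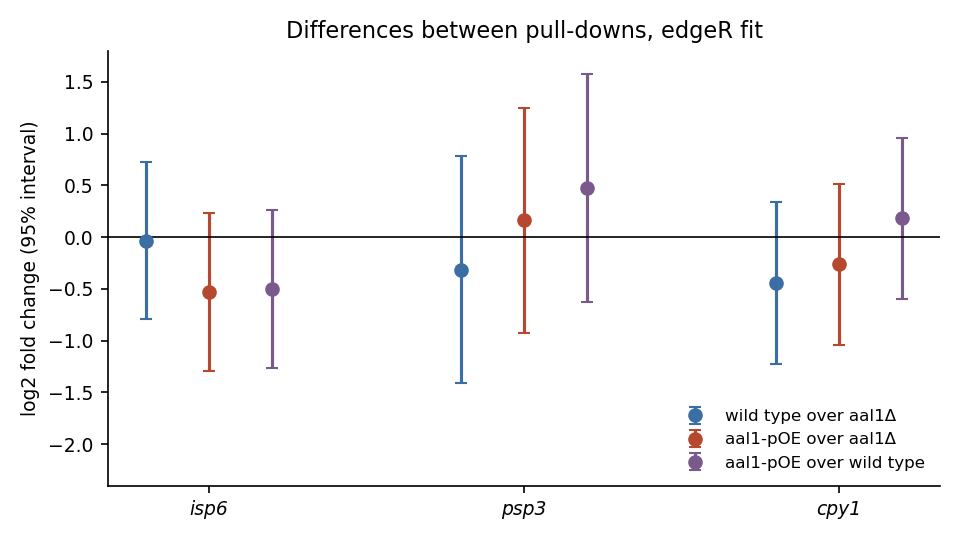
log2 fold change between pull-downs for *isp6*, *psp3* and *cpy1* from edgeR's quasi-likelihood fit of all 6 libraries, with 95% intervals. All 9 intervals cross 0; *isp6* is at -0.53 and -0.50 in the comparisons of *aal1-pOE*.

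Together the 4 mRNAs made up 0.990% and 1.08% of nuclear mRNA counts in *aal1-pOE*, 1.06% and 1.13% in wild type, against 1.36% and 1.24% in *aal1∆*, so the *aal1∆* libraries were the highest. Most of this sum is *cpy1* and *isp6*. *cpy1* alone had the same order, which 5.88% of the 1292 nuclear mRNAs kept for testing had. How common the order is among other sums of mRNAs was not counted.

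Each list of other genes of the vacuole and of autophagy took a smaller share of nuclear mRNA than the 4 mRNAs together, although single genes of these lists had more counts than *psp3* or *atg8*. Of 3 other vacuolar peptidase genes, *cps1* and *erm2* were tested and had log2 fold changes between -0.90 and -0.21 in the 3 comparisons, all below 0, with 0 called and 0 at an unadjusted p under 0.05 (edgeR, and likewise DESeq2). *cps1*, which encodes a vacuolar carboxypeptidase, had 15 and 7 counts for *aal1-pOE*, 19 and 18 for wild type, against 58 and 6 for *aal1∆*. By CPM that is 163 and 85.1 in *aal1-pOE*, 212 and 208 in wild type, against 331 and 148 in *aal1∆*. The *aal1∆* libraries thus overlapped those of wild type and those of *aal1-pOE*. As a list these peptidases took 0.0484% and 0.0455% of nuclear mRNA in *aal1-pOE*, 0.0494% and 0.0845% in wild type, against 0.0905% and 0.0792% in *aal1∆*.

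Of 33 core autophagy genes besides *atg8*, 32 had at least 1 count and 9 were tested. 0 of the 9 were called in any comparison, by edgeR's quasi-likelihood test, its likelihood ratio test or DESeq2, and 0 had an unadjusted p under 0.05 in the quasi-likelihood test and DESeq2, while the likelihood ratio test gave 1 such gene in wild type against *aal1∆*. Their median log2 fold change was 0.68 in wild type against *aal1∆*, 0.66 in *aal1-pOE* against *aal1∆* and -0.07 in *aal1-pOE* against wild type, where the medians of all tested RNAs were 0.00, 0.01 and 0.03. Above 0 were 5, 7 and 4 of the 9. *ctl1*, a gene of an autophagy membrane protein, had the largest log2 fold change in wild type against *aal1∆*, 2.35 (standard error 1.42). It had 8 and 8 counts for *aal1-pOE*, 20 and 10 for wild type, against 8 and 0 for *aal1∆*, so no strain had more than 20 in a library. *vps15*, whose product regulates the lipid kinase of autophagy, had 12 and 3 counts for *aal1-pOE*, 12 and 8 for wild type, against 40 and 12 for *aal1∆*. *atg1*, the kinase that starts autophagy and the most counted of the list, had 20 and 12 counts for *aal1-pOE*, 21 and 14 for wild type, against 32 and 10 for *aal1∆*. *atg43*, the mitophagy receptor, had 11 and 8 counts for *aal1-pOE*, 30 and 14 for wild type, against 27 and 1 for *aal1∆*. In CPM, *ctl1* and *atg43* were highest in both wild-type libraries, an order that 5.94% of all tested RNAs had, *vps15* was highest in both *aal1∆* libraries, as were 5.64%, and *atg1* overlapped in all 3 strains. *ctl1*, *atg43* and *vps15* are named for having the smallest p of the list.

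Of 17 genes of the vacuolar ATPase, the proton pump of the vacuole, all had counts and 2 were tested, *vph1* and *vma3*, with 0 called. Of 23 genes of vacuolar protein sorting and membrane fusion, 4 were tested and 0 called. *vps1302*, of the VPS13 family of lipid transfer proteins, was the most counted of these, with 85 and 56 counts in *aal1-pOE*, 95 and 46 in wild type, against 194 and 11 in *aal1∆*. In the 3 comparisons its log2 fold change lay between 0.02 and 0.24. *vps10*, the sorting receptor of carboxypeptidase Y, had 42 and 26 counts for *aal1-pOE*, 55 and 17 for wild type, against 51 and 21 for *aal1∆*, that is 457 and 316 CPM for *aal1-pOE*, 615 and 196 CPM for wild type and 291 and 517 CPM for *aal1∆*. The receptor's mRNA thus overlapped in all 3 strains. Of 5 genes of vacuolar amino acid transporters, *avt3* alone was tested, with a log2 fold change over *aal1∆* of 1.57 (standard error 1.18) for *aal1-pOE* and of 1.44 (standard error 1.18) for wild type, and edgeR adjusted p of 0.9999. For these 3 lists 0 genes had an unadjusted p under 0.05 in edgeR's quasi-likelihood test and DESeq2.

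**Figure D5:**
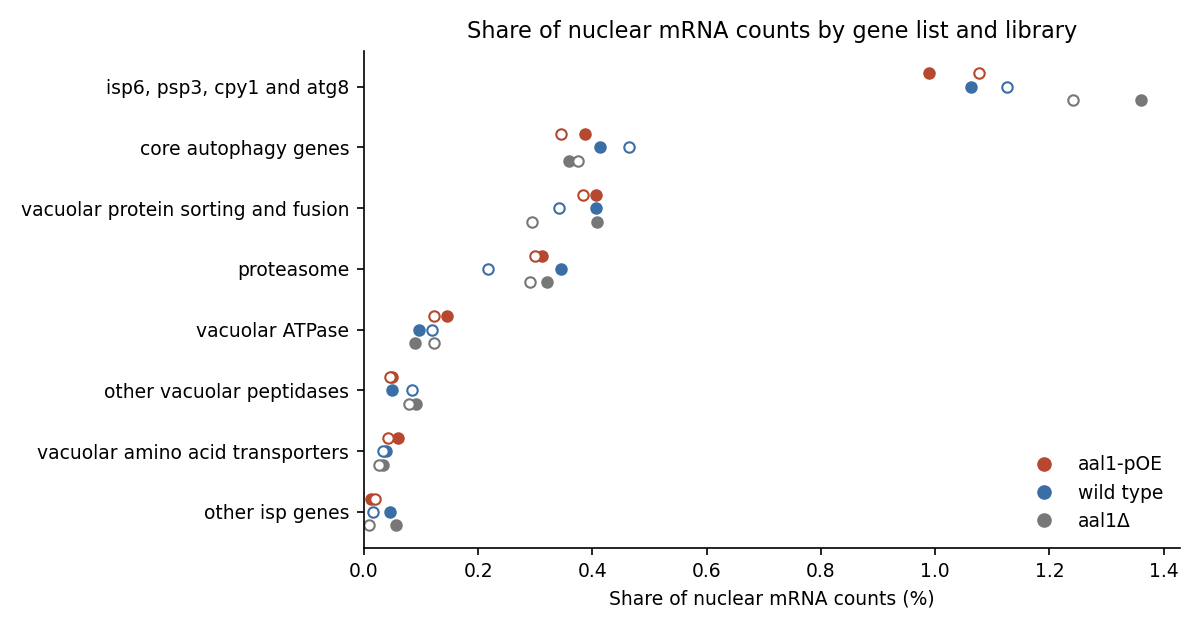
Share of nuclear mRNA counts, in percent, taken by each gene list in each library (filled points replicate 1, open points replicate 2). The 4 mRNAs *isp6*, *psp3*, *cpy1* and *atg8* together take 0.990% to 1.36%, more than any other list shown.

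Genes beside or across the 4 loci were counted as a check on reads from neighbouring transcription. *rnf10*, across *atg8*, exceeded it, as given above, and the others had fewer counts over the 6 libraries together than the gene of the 4 that they adjoin. SPNCRNA.834, which shares 70 nt with *isp6* on the same strand, had 1 count in all libraries together. Of the nearest genes in the table, *ptc4* near *isp6* had at most 11 counts in a library, *asa1* near *psp3* at most 2, SPAC19G12.09 near *cpy1* at most 31, and *erd2* and *cyp4* near *atg8* at most 6 each, which for *erd2* was more than the 1 count of *atg8* in *aal1∆* replicate 2. *wtf1* near *psp3* had at most 4, and SPNCRNA.835 near *isp6* and *erh1* near *cpy1* had 0 counts in every library. Annotated antisense lncRNAs also cross *isp6*, *psp3* and *atg8*, but none of them was listed by its identifier among the genes counted.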

How the data were processed

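RNA of *aal1* pull-downs from *aal1-pOE*, wild-type and *aal1∆* cells was analysed from the deposited table, which holds the authors' raw counts per gene for 6 libraries, 2 per strain and described as biological replicates. The authors trimmed 8 bases from each read, mapped read pairs with HISAT2 2.2.1 and counted with HTSeq 0.12.3, per the submitters' processing notes and the methods. HISAT2 was set to forward and HTSeq to reverse strand. The counted strand was taken as that of the gene, which was not tested. Their genome release was not given in the sources used here. Collapsing of reads by the kit's molecular indices was not described. The RNA-seq steps that the paper also cites for these reads clip the indices first, so mapped reads may have been shorter than taken here.

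Names and sequences came from RefSeq ASM294v3, which 6852 of 7001 identifiers matched. Counts were normalised by TMM, filtered by filterByExpr (1329 RNAs) and fitted with glmQLFit over all 6 libraries in edgeR 4.0.16 (R 4.3.3; common dispersion 0.243, prior degrees of freedom 71.0, residual 3), with Benjamini-Hochberg adjustment at 0.05. The standard error is the log2 fold change over the square root of F. Single values were compared by exact permutation tests. DESeq2 1.42.0, other scalings and filters, a likelihood ratio test, a replicate block and leaving out each library were alternatives. Ratios within libraries and shares of nuclear mRNA were added after seeing the data. Correlations used log2 CPM with a prior count of 2.

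The 4 genes and 7 gene lists were chosen with earlier results of these data known. By rule the text names the 4 genes, *aal1*, their overlapping and nearest genes, up to 3 tested genes of each list by smallest p and 3 by counts, and the 5 RNAs most alike each. Python 3.11.15, pandas 2.3.3, scipy 1.17.1 and matplotlib 3.10.9 were used. Coverage along transcripts and other libraries of the study were not used here.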

Additional observations from a re-analysis of the deposited data

How the results depend on the processing

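With 2 libraries per strain, depth and replicate spread limit these results: *atg8* rests on 22 counts, and 1 *aal1∆* library holds 40653 counts. No alternative called *isp6*, *psp3* or *cpy1* in any comparison, with adjusted p from 0.611 to 1 (edgeR and DESeq2), and 124 of 135 fold changes under alternatives kept their direction. The others lay near 0 or turned on 1 library. *isp6* in wild type against *aal1∆* had a log2 fold change of 0.0174 with RLE size factors, 0.0242 with rRNA, *aal1*, SPNCRNA.401 and mitochondrial genes left out, 0.0171 in DESeq2, and -0.135 to 0.0827 when single libraries were left out. *cpy1* in *aal1-pOE* against wild type was -0.0090 with library size only, and -0.0498 to 0.353 with single libraries left out. *psp3* ran from -0.76 to 0.55 in wild type against *aal1∆*, the highest without *aal1∆* replicate 1, and from -0.28 without *aal1∆* replicate 2 to 1.03 without *aal1∆* replicate 1 in *aal1-pOE* against *aal1∆*, with -0.07 without *aal1-pOE* replicate 1. The causes were not tested. *isp6* in *aal1-pOE* kept its direction throughout, from -0.67 to -0.41 against *aal1∆* and from -0.66 to -0.40 against wild type. The difference of *atg8* in mean CPM between wild type and *aal1∆* ran from -11.6 to 26.6, and those of *aal1-pOE* stayed below 0. Library size only moved the median of all tested RNAs to -0.14 in *aal1-pOE* against *aal1∆* and to -0.16 against wild type.

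The number of RNAs called in wild type against *aal1∆* was 2, and 1 with library size only, 1 with rRNA, *aal1*, SPNCRNA.401 and mitochondrial genes left out, 4 with only the 2 strains compared, and 0 to 3 with single libraries left out. In *aal1-pOE* against *aal1∆* it was 5, and 2 without those genes, 2 in DESeq2, and 2 to 6 with single libraries left out. In *aal1-pOE* against wild type it was 3, 0 without those genes, and 2 to 3 with single libraries left out. Deviations between replicates were hardly correlated between strains (correlation 0.05 for wild type and *aal1∆*, -0.05 for *aal1-pOE* and *aal1∆*, and 0.09 for *aal1-pOE* and wild type). Counting error also lowers such correlations, so they do not settle whether replicate numbers pair the samples. With the replicate block, 2, 4 and 3 RNAs were called in the same 3 comparisons, and the log2 fold changes of *isp6* were -0.03, -0.53 and -0.50.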

Other observations

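Other lists give values beside those of the vacuolar genes. Of 36 proteasome genes, which encode the other large protein-degrading machine of the cell, 5 were tested and 0 were called by edgeR. At an unadjusted p under 0.05 in edgeR's quasi-likelihood test, which 33 of 1329 RNAs had in wild type against *aal1∆* and 56 of 1329 in *aal1-pOE* against wild type, there was 1 proteasome gene in each of these comparisons. *rpn2*, a gene of the regulatory particle, stood at -1.43 (log2 fold change, with standard error 0.702 and adjusted p = 0.9999) in wild type against *aal1∆*, where DESeq2 gave 0 such proteasome genes. *rpt5* stood at -3.48 (standard error 1.67, adjusted p = 0.995) in *aal1-pOE* against wild type. Of the 5 tested genes, 3 lay above 0 in that comparison, with a median log2 fold change of 0.35. *mts4* among them stood at 1.22 (standard error 0.815). In wild type against *aal1∆* 2 of the 5 lay above 0, with a median of -0.11. *rpt5*, an ATPase subunit gene, had 2 and 0 counts for *aal1-pOE*, 20 and 8 for wild type, against 13 and 7 for *aal1∆*. The proteasome list took 0.312% and 0.300% of nuclear mRNA in *aal1-pOE*, 0.346% and 0.218% in wild type, against 0.320% and 0.290% in *aal1∆*. The 4 other *isp* genes, named like *isp6* for induction in sexual development, had 101 counts in all and 0 of them passed the filter. *isp5* had 3 and 2 counts for *aal1-pOE*, 19 and 0 for wild type, against 14 and 0 for *aal1∆*. *isp4* had 2 and 4 counts for *aal1-pOE*, 1 and 2 for wild type, against 20 and 1 for *aal1∆*. *isp7* had 1 and 0 counts for *aal1-pOE*, 6 and 4 for wild type, against 13 and 1 for *aal1∆*. These genes thus had no common order of the strains.

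As a description over 6 libraries, with no test, the tested RNA whose log2 CPM followed that of *isp6* most closely was *gld1*, a glycerol dehydrogenase gene (Pearson r = 0.99), followed by SPBC36.11 (r = 0.98), SPAC23C11.06c (r = 0.96), *pub3*, a ubiquitin ligase gene (r = 0.94), and SPAC27E2.03c (r = 0.93). For *psp3* they were *ecl2* (r = 0.96), *mok11* (r = 0.96), SPAC1399.01c (r = 0.95), the autophagy gene *atg13* (r = 0.94) and *trp2* (r = 0.93). For *cpy1* they were *mug147* (r = 0.99), the eisosome gene *eis1* (r = 0.98), *min8* (r = 0.94), *mdm34* (r = 0.94) and *ubp2* (r = 0.93). For *atg8* they were *dld1* (r = 0.98), *isp6* (r = 0.95), *abc4* (r = 0.94), *ssd2* (r = 0.94) and SPAC27E2.03c (r = 0.94). All points of a correlation share their libraries and scaling, and the best of all tested RNAs over 6 points are high by selection. Among the protease mRNAs themselves, r was 0.07 for *isp6* and *cpy1*, -0.10 for *isp6* and *psp3* and 0.08 for *psp3* and *cpy1*.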
